A study of Mus musculus with 4 samples.

Results

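Expression of 6 genes of the endothelin pathway was followed in cells of the Tbx1Cre lineage of the mouse embryo. They were Edn1, which encodes the ligand endothelin-1, Ece1, the protease that cuts its inactive precursor, Ednra and Ednrb, both endothelin receptors, and Dlx5 and Dlx6, homeobox genes that respond to the signal in the lower jaw. The genes were listed by name and matched by Ensembl identifier across the gene tables of all 4 libraries, so 6 of the 27514 genes shared by these tables are described.

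Endothelin-1 is made as a longer precursor, cut and secreted, and it binds receptors of the G protein-coupled family on neighbouring cells. In the pharyngeal arches, the bulges from which face and neck form, the ligand is known from the epithelium and from the mesoderm core of the arch. Ednra is known from the mesenchyme around them, much of which comes from neural crest. Signalling through Ednra and Gq-type G proteins turns on Dlx5 and Dlx6 in neural crest cells of the lower arch, and these in turn act on genes of the lower jaw such as Hand2 and Barx1. Ednrb is best known from melanocyte and enteric nerve precursors, and from endothelium.

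Droplet single-cell RNA-seq of the 3′ ends of transcripts had been made with unique molecular identifiers (UMIs), each of which marks 1 captured molecule. The groups were Ctrl (Tbx1Cre/+;Rosa26-GFPflox/+) and cKO (Tbx1Cre/flox;Rosa26-GFPflox/+) embryos on a Swiss Webster background, at embryonic day (E) 8.5 and E9.5, with 1 library of pooled embryos in each of the 4 groups. Every embryo carried the Cre knock-in, which inactivates 1 copy of Tbx1, so the controls were heterozygous, and every embryo carried the Cre-dependent GFP reporter by which live cells were sorted. Cre was expressed from the Tbx1 locus, so the sort took cells that had expressed Tbx1 or descend from such cells, and most neural crest lies outside it. The upper body was dissected at E8.5, and the pharyngeal apparatus with the heart at E9.5. For both E9.5 libraries the study's sample summary also names the back. With 1 library per group there is no replicate for any value, no test of a difference was possible, and the ranges given are 95% counting intervals that hold nothing of the spread between embryos or preparations.

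The libraries held 1090 to 6266 cells, with medians of 15910.5 to 23984 UMIs per cell, and pairs of libraries shared 2 to 55 cell barcodes. The cKO E9.5 library was counted on another gene table, with 31053 genes against 27998 in the other 3. Without integration 11 of 23 clusters took at least 95% of their E9.5 cells from 1 library, and these held 61.5% of all E9.5 cells. Genotype at E9.5 therefore cannot be told apart from library and gene table. Stage cannot be told apart from library and dissection. Tbx1 itself was counted at 86.4, 118, 103 and 134 UMIs per 1000000 UMIs in the 4 libraries, in the order Ctrl then cKO at E8.5 and Ctrl then cKO at E9.5, which is kept wherever 4 values follow each other, so it was not lower in either library labelled cKO. Counts of a 3′ end do not show whether a stretch further up was deleted, and the labels were not checked by it. Over all genes with at least 20 UMIs the median log2 ratio of cKO over Ctrl was 0.04 at E8.5 and −0.26 at E9.5, and that of E9.5 over E8.5 was 0.39 in Ctrl.

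Cells were grouped by clustering from which 41 genes had been left out, the members and the pathway genes among them, so that no cell was placed by an endothelin or Dlx gene. Of 22 cell groups, 11 took the name of a cell type by its markers, such as branchiomeric muscle-like (BrM-like, the precursors of jaw and neck muscle) and multilineage progenitor-like (MLP-like) cells. The other groups are called by their leading genes. Levels are given as UMIs per 1000000 UMIs (UPM), summed over the cells of a group, and compare the same gene between cells. For all cells together, fewer cells of a type and fewer transcripts per cell give the same fall, so values within groups follow each total.

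Edn1 (ENSMUSG00000021367) lies on chromosome 13 from 42301476 to 42307990 and Ednra (ENSMUSG00000031616) on chromosome 8 from 77663029 to 77724452 in GRCm38. The RefSeq bases before the start of each are shown because the ligand and its receptor were both lower in the cKO E9.5 library while being highest in different cell groups. Their sites are chr13:42301226-42301475 on the plus strand and chr8:77724453-77724702 on the minus strand (GRCm38.p6), in each case 250 bases. Capitals mark GGTGT, the short core of T-box sites, searched on both strands.

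Edn1: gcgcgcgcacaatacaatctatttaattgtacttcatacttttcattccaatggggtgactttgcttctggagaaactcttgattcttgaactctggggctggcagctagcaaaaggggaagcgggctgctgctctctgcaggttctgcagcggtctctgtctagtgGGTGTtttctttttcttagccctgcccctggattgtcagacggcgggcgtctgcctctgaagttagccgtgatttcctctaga

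Ednra: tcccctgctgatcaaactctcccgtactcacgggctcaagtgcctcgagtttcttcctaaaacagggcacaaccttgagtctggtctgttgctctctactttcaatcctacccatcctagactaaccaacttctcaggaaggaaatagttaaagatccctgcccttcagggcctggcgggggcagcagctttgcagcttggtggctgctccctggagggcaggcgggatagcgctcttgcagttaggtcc

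The stretch before Edn1 held 1 such core, 83 bases before the start, and that before Ednra held none, while Ednrb held 1 and the first of 4 starts of Ece1 held 3. The core occurred in the same window of 36.2% of 32851 promoters, so its presence is common, and it was added after a first search had found nothing. That search, also on both strands, used the longer T-box core GGTGTGA, which contains the short one and lies in 3.33% of promoters. It also used AGATAA, a site of GATA factors, present in 9.99% of promoters. The site TGACTCA of AP-1 factors was present in 4.46% of them. For homeodomain factors the letters TAATTA were used, which 4.84% of promoters hold. Last came TATAAA, the core promoter box, present in 12.4%. None of these 5 had a match in the windows of Edn1, Ece1, Ednra or Ednrb. Ece1 (ENSMUSG00000057530, chromosome 4, 137862237 to 137965229), Ednrb (ENSMUSG00000022122, chromosome 14, 103814615 to 103844508), Dlx5 (ENSMUSG00000029755, chromosome 6, 6877801 to 6882068) and Dlx6 (ENSMUSG00000029754, chromosome 6, 6863334 to 6867970) are protein-coding genes in the same build.

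Edn1, the ligand, was concentrated in BrM-like and endoderm-like cells, and it was lower in cKO than in Ctrl at both stages. Over all cells Edn1 was at 12.8 UPM in the control library and 8.51 in the mutant at E8.5, and 20.1 and 4.49 at E9.5, from 322, 219, 1895 and 470 UMIs. The log2 ratio of cKO over Ctrl was −0.58 (−0.84 to −0.33) at E8.5 and −2.16 (−2.31 to −2.02) at E9.5, a level 4.48 times lower. From E8.5 to E9.5 the log2 ratio was 0.66 in Ctrl and −0.92 in cKO, so the gene was higher at the later stage in one genotype and lower in the other, a difference that was not tested. At E9.5 the cell groups were also present in other proportions, and with each group's level weighted by its share of Ctrl UMIs the log2 ratio was −1.11.

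BrM-like cells were the main senders. They held 68.9% (63.6 to 74.0) of all Edn1 UMIs in the control library and 68.0% in the mutant at E8.5, and 50.4% and 47.9% at E9.5. These were 156, 115, 539 and 431 cells, that is 10.9%, 10.6%, 9.88% and 6.88% of each library. The Edn1 level in them was 75.3 UPM in the control library and 48.1 in the mutant at E8.5, and 91.5 and 26.2 at E9.5. Both cKO libraries lay below both Ctrl libraries, by −0.64 (−0.95 to −0.34) as a log2 ratio at E8.5 and by −1.80 (−2.02 to −1.59) at E9.5, where the median of all genes in BrM-like cells was −0.24. Only 1.55% of genes counted in these cells had a lower ratio at E9.5.

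The share of BrM-like cells with the transcript was lower in cKO at both stages. The molecules per cell with it were fewer in cKO at E9.5, where depth was alike. After every cell had been thinned to 10000 UMIs, Edn1 was found in 41.1% (33.1 to 49.3) of BrM-like cells of Ctrl E8.5, 28.7% (20.6 to 37.9) of cKO E8.5, 51.6% (47.1 to 56.1) of Ctrl E9.5 and 19.0% (15.3 to 23.1) of cKO E9.5. Without thinning these shares were 57.7%, 47.8%, 63.5% and 29.7%. In mesenchyme-like cells, which served as the background for free RNA, 1.72%, 0%, 0.169% and 0.212% of thinned cells had an Edn1 UMI at like depth (median 15635 to 22303 UMIs), and the 0 of 141 allows a share of cells with a UMI of up to 2.13%, taken as 3 counts of the total. BrM-like cells with an Edn1 UMI held a mean of 2.47 of them in the control and 2.71 in the mutant at E8.5, and 2.79 and 1.76 at E9.5, all before thinning. At E8.5, 12 of 156 and 11 of 115 BrM-like cells had at least 5. These E8.5 means and counts were not at like depth, with a median of 18116.5 UMIs per BrM-like cell in Ctrl and 25424 in cKO. The medians at E9.5 were 18512 and 18500. At E9.5 at least 5 Edn1 UMIs were found in 57 of the 539 BrM-like cells of Ctrl E9.5, with 19 in the highest, and in 5 of the 431 of cKO E9.5, with 8 in the highest.

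In the larger cluster of BrM-like cells, led by Tcf21 and Lhx2, factors of muscle precursors, Edn1 stood at 111 UPM in E9.5 controls and 27.3 in E9.5 mutants (log2 ratio −2.03, −2.30 to −1.77). At E8.5 the log2 ratio in that cluster was −0.60 (−0.93 to −0.27). The summed level of the 8 branchiomeric muscle markers in BrM-like cells moved the same way at E9.5, from 552 UPM in Ctrl to 374 in cKO, with none of the 8 at 0, and at E8.5 it was 280 and 264 UPM with Myf5 and Myod1 at 0 in both. Its part in the Edn1 difference was not tested. Among the Tcf21 and Lhx2 cluster's own 10 leading genes was Edn1.

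**Figure D1:**
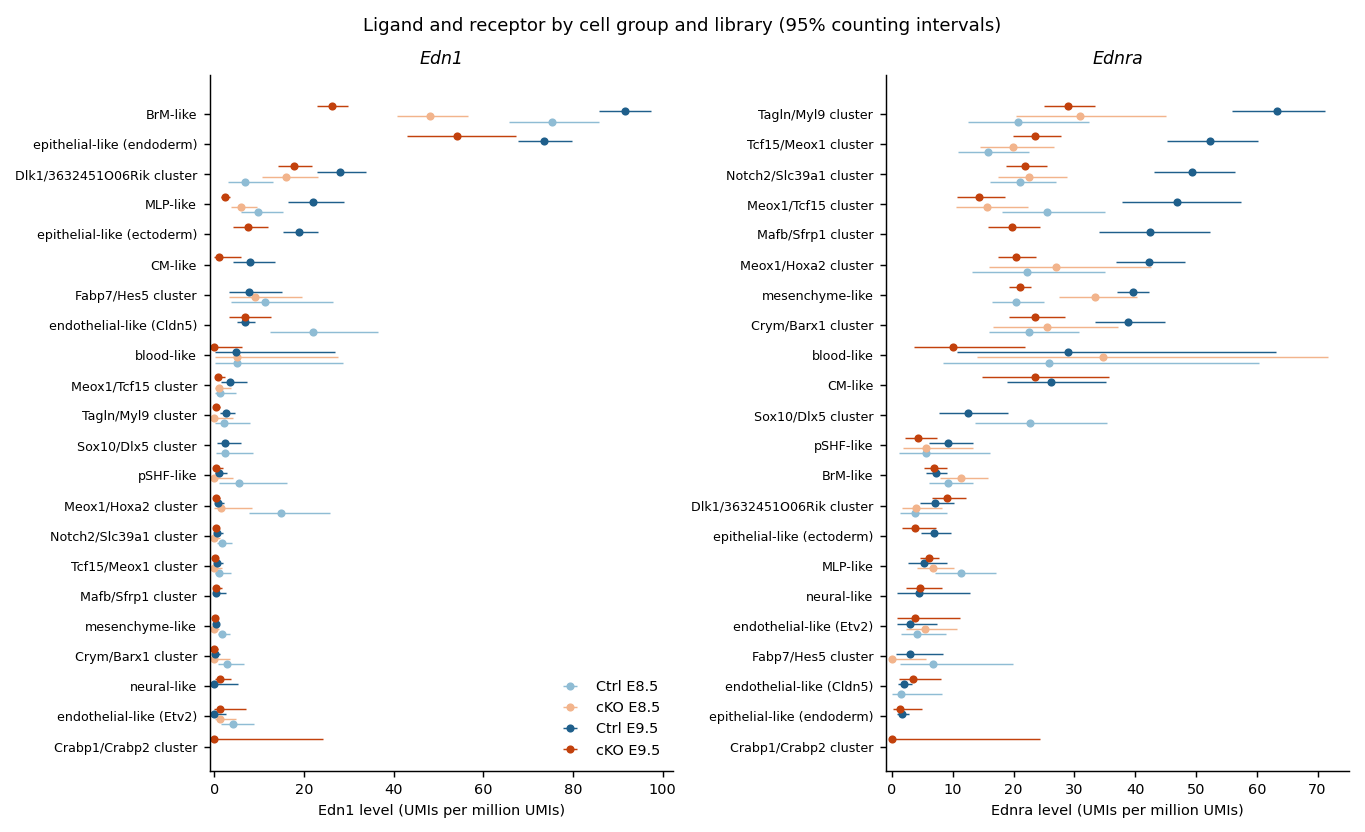
Level of Edn1 (left) and Ednra (right) in each cell group in UMIs per 1000000 UMIs, 1 point per library with its 95% counting interval, for groups of at least 20 cells. Edn1 was highest in BrM-like cells in Ctrl E9.5 (91.5, against 26.2 in cKO E9.5), highest in endoderm-like cells in cKO E9.5 (54.1), and near 0 in mesenchyme-like cells, whereas Ednra was highest in the Tagln/Myl9 cluster (63.3 against 29.0) and low in BrM-like and epithelial-like cells.

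Endoderm, the inner epithelium of the pharynx, was the next sender. Endoderm-like epithelial cells stood at 73.6 UPM of Edn1 in Ctrl E9.5 (569 UMIs, 30.03% of the gene's total) and 54.1 UPM in cKO E9.5 (80 UMIs, 17.0%). In Ctrl E9.5 they were below BrM-like cells by a log2 ratio of 0.31 (0.16 to 0.47) and above the next group, the Dlk1/3632451O06Rik cluster, by 1.39 (1.09 to 1.70). The log2 ratio of cKO over Ctrl was −0.44 (−0.80 to −0.10), an interval that held the median of all genes in these cells, −0.22. The share of thinned cells with a UMI was 36.7% (31.9 to 41.8) against 37.7% (26.3 to 50.2). In cKO E9.5 the order of the groups was the reverse, with endoderm-like above BrM-like cells by a log2 ratio of 1.05 (0.66 to 1.42). The larger change in endoderm-like cells was in their number, since endoderm-like cells were 413 in Ctrl E9.5 (7.57% of the library) and 71 in cKO E9.5 (1.13%). At E8.5 only 13 and 7 such cells were captured, with 4 and 3 Edn1 UMIs.

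Lower levels followed in several groups. The Dlk1/3632451O06Rik cluster also had Hand2, Gata5 and Tnni1 among its leading genes. All markers listed for anterior second heart field or somatic mesoderm stood at 1.5 times the other Ctrl cells or more in it. So did some markers of other classes. Its Edn1 level was 6.94 UPM (9 UMIs) in the control library and 16.0 (28 UMIs) in the mutant at E8.5. At E9.5 the level was 28.0 and 17.7 UPM. Here alone among the groups with 20 UMIs was the interval at E8.5 above 0 (log2 ratio 1.20, 0.08 to 2.47), while at E9.5 the ratio was −0.66 (−1.09 to −0.24). MLP-like cells had 9.75, 6.07, 22.1 and 2.46 UPM, the last from 26 UMIs in 650 cells against 51 UMIs in 140 cells of Ctrl E9.5, which gave −3.17 (−3.91 to −2.46) as the E9.5 log2 ratio. In surface ectoderm-like cells the gene was at 18.9 UPM in E9.5 controls and 7.42 in E9.5 mutants (−1.35, −2.21 to −0.58). Cldn5-led endothelial-like cells, by contrast, had 6.93 and 6.86 UPM (−0.02, −1.16 to 0.98). All 6 groups with at least 20 UMIs at E9.5 had a ratio below 0. In 5 of them the interval lay below 0, and in 4 below the group's own median over all genes.

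**Figure D2:**
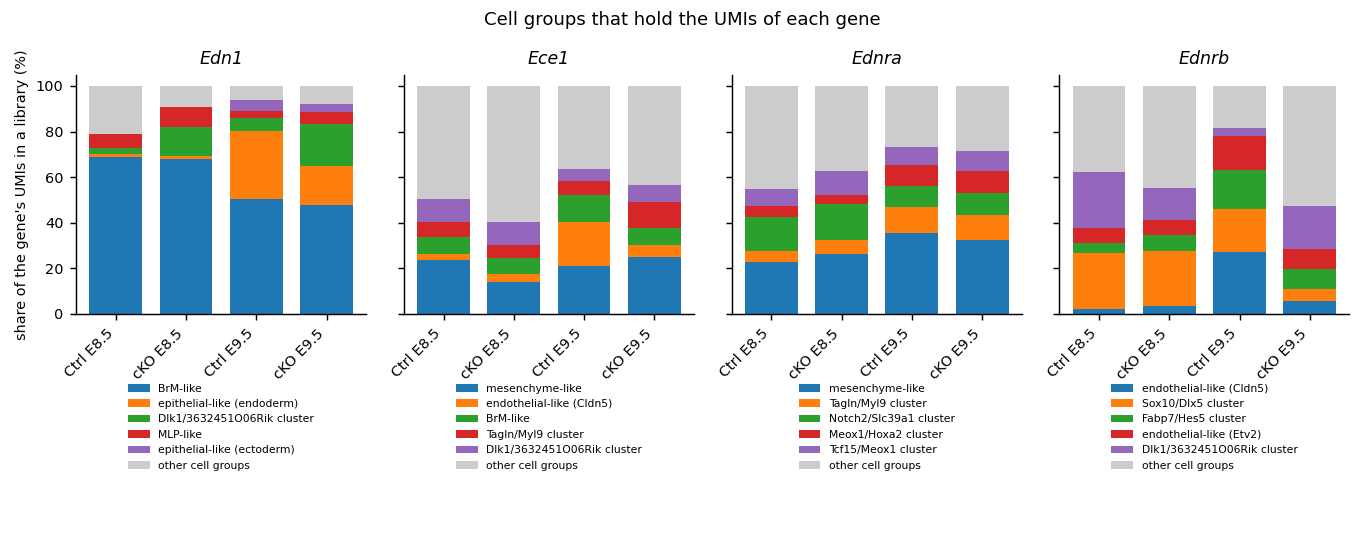
Share of each gene's UMIs (y axis, percent) held by its 5 leading cell groups and by all others in each library (x axis). BrM-like cells held between 47.9% and 68.9% of Edn1 UMIs in every library, while the endothelial-like share of Ednrb differed between Ctrl E9.5 and cKO E9.5.

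Ece1, whose product activates the ligand, was found at some level in most groups and was highest in Cldn5-led endothelial-like cells at E9.5. In Ctrl E8.5 those cells, at 14.7 UPM, were seventh, and the Dlk1/3632451O06Rik cluster was first at 28.5 UPM, with no neighbours in that order parted beyond their intervals down to the eighth. Over all cells Ece1 was at 14.3, 16.8, 21.4 and 14.7 UPM for the 4 libraries in order. The log2 ratio of cKO over Ctrl was 0.23 (0.03 to 0.44) at E8.5 and −0.55 (−0.64 to −0.45) at E9.5, and the latter was −0.29 after the median of all genes had been subtracted. Cldn5-led endothelial-like cells were the highest in Ctrl E9.5 at 54.9 UPM, above posterior second heart field-like (pSHF-like) cells at 32.9 by a log2 ratio of 0.74 (0.42 to 1.07). The pSHF-like cells, the Etv2-led endothelial-like cells (31.8), the Tagln/Myl9 cluster (29.7) and the Dlk1/3632451O06Rik cluster (25.9) could not be ordered, each differing from the next by less than its counting interval. In the main senders Ece1 was middling or low, with 22.5 UPM in BrM-like and 11.4 UPM in endoderm-like cells of Ctrl E9.5.

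In the endothelial-like cells Ece1 was at 54.9 UPM in E9.5 controls and 55.6 in E9.5 mutants (log2 ratio 0.02, −0.35 to 0.37). The share of thinned cells with a UMI there was 40.2% (34.9 to 45.8) and 34.7% (24.0 to 46.5). At E8.5 the level in these cells was 14.7 UPM in Ctrl (10 UMIs in 33 cells) and 48.2 in cKO (15 UMIs in 15 cells), a log2 ratio of 1.71 (0.46 to 3.03). Of 20 groups with at least 20 UMIs at E9.5, 16 had a ratio below 0, in 7 the interval lay below 0 and in 4 below the group's own median over all genes, with 1 above that median. Among the 7 were pSHF-like (−0.86, −1.38 to −0.36), BrM-like (−0.69, −1.02 to −0.37) and mesenchyme-like cells (−0.43, −0.64 to −0.23). Ece1 overlaps Gm13012, and reads in the overlap are uncertain.

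Ednra, the receptor through which endothelin-1 acts in the arches, was highest in other cell groups than its ligand at E9.5. Over all cells it was at 15.9 UPM in the control library and 16.5 in the mutant at E8.5, and 25.5 and 16.3 at E9.5, from 401, 425, 2407 and 1709 UMIs. The ratio of cKO over Ctrl was 0.06 (−0.14 to 0.26) on the log2 scale at E8.5 and −0.64 (−0.73 to −0.55) at E9.5. Weighted by the shares of Ctrl UMIs in the cell groups the value at E9.5 was −0.87.

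The receiving cells at E9.5 were mesenchymal and somitic in their leading genes. In Ctrl E9.5 the Tagln/Myl9 cluster, named for smooth muscle genes, had 63.3 UPM of Ednra, the Tcf15/Meox1 cluster, named for somite genes, 52.3 and the Notch2/Slc39a1 cluster 49.4. The first stood above the second by a log2 ratio of 0.27 (0.00 to 0.55), and neighbours from the second to the sixth group did not differ beyond their counting intervals. Mesenchyme-like cells, at 39.6 UPM in 1306 cells, held the largest share of the gene's UMIs, 35.5% (33.6 to 37.5). BrM-like cells had 7.19 UPM, Cldn5-led endothelial-like cells 1.94 UPM and endoderm-like cells 1.68 UPM in the same library. Thus in Ctrl E9.5 the groups highest in Edn1 were among the lowest in Ednra. The groups lay closer in Ctrl E8.5, where 17 of 151 thinned BrM-like and 39 of 233 mesenchyme-like cells had an Ednra UMI.

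In the Tagln/Myl9 cluster Ednra was higher in Ctrl E9.5 than in the other 3 libraries. It stood at 20.7 UPM in the control library and 31.0 in the mutant at E8.5, and 63.3 and 29.0 at E9.5, with 65, 48, 295 and 401 cells. The interval of Ctrl E9.5 (56.0 to 71.3) overlapped with that of no other library, and the other 3 overlapped with each other. The log2 ratio of cKO over Ctrl there was 0.58 (−0.32 to 1.51) at E8.5 and −1.13 (−1.40 to −0.85) at E9.5, and that of E9.5 over E8.5 in Ctrl was 1.61 (0.94 to 2.36).

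Mesenchyme-like cells had 20.3 UPM of Ednra in the control library and 33.5 in the mutant at E8.5, and 39.6 and 21.0 at E9.5. The log2 ratio of cKO over Ctrl was thus 0.72 (0.31 to 1.13) at E8.5 and −0.91 (−1.07 to −0.76) at E9.5. With cells clustered without integration the first of these was 0.24 (0.02 to 0.47). The share of thinned cells with a UMI was 16.7% (12.2 to 22.2) and 25.5% (18.6 to 33.6) at E8.5, and 31.8% (29.2 to 34.6) and 17.8% (15.9 to 19.9) at E9.5. In endoderm-like cells of the E9.5 libraries, taken as the background, the share was 1.84% (0.742 to 3.75) and 1.45% (0.0367 to 7.81). All 3 clusters of the mesenchyme-like group were lower at E9.5, with log2 ratios of −0.88 (Lum/Plpp3), −0.96 (Nbl1/Lum) and −0.83 (Zic1/Msx1). The summed level of the 8 mesenchyme markers moved little, from 1230 UPM in Ctrl E9.5 to 1284 in cKO E9.5.

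Of the 15 groups with at least 20 Ednra UMIs at E9.5, 13 had a ratio below 0, with a median of −1.05. In 9 the interval lay below 0, and in 8 it lay below the group's own median over all genes, which was between −0.27 and −0.19. The lowest of the 9 was the Meox1/Tcf15 cluster at −1.71 (−2.22 to −1.21). BrM-like cells did not share this (−0.04, −0.56 to 0.47), nor did MLP-like cells (0.22, −0.68 to 1.24). At E8.5 none of 10 groups had an interval below 0 and 1 had it above 0. Against the group's own median over all genes, 1 interval lay below and 1 above.

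**Figure D3:**
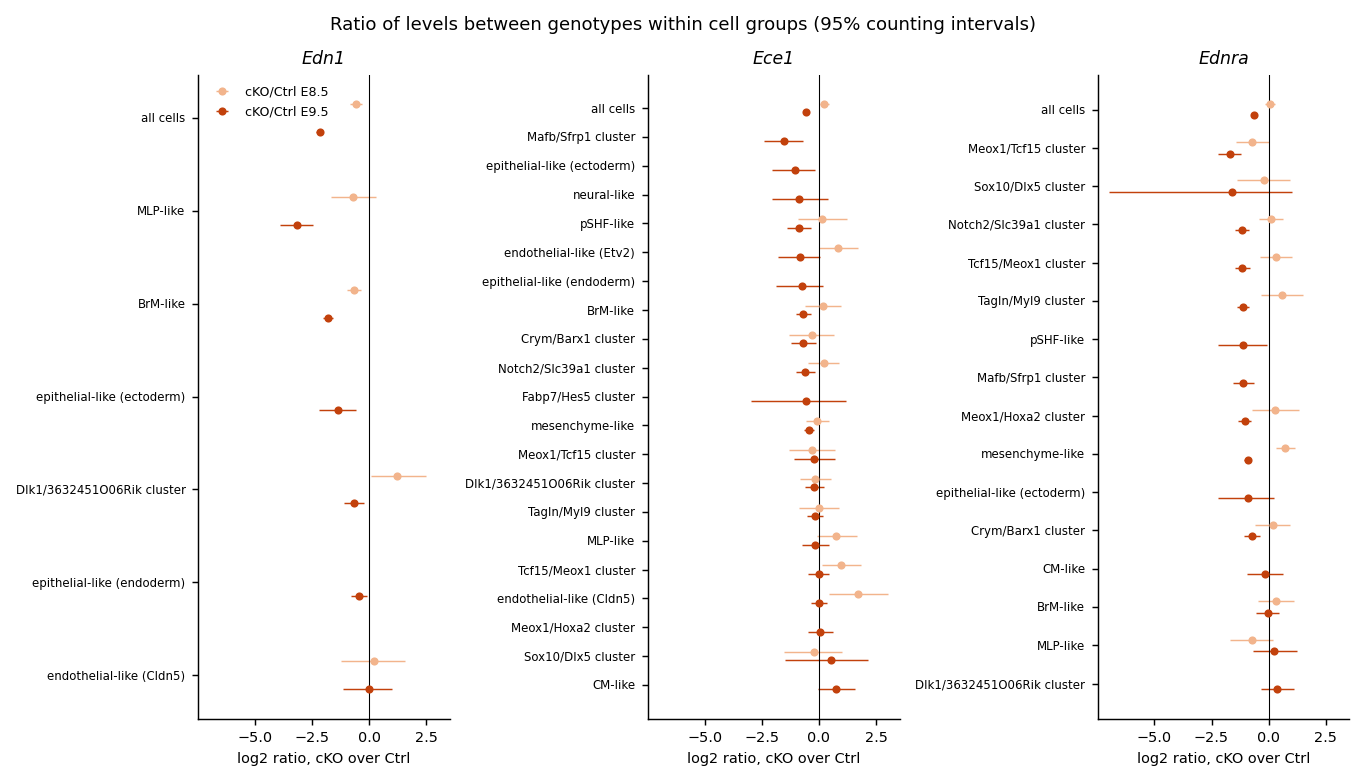
Log2 ratio of cKO over Ctrl (x axis) for Edn1, Ece1 and Ednra in all cells and in each cell group with at least 20 UMIs, with 95% counting intervals, at E8.5 (light) and E9.5 (dark). At E9.5 Edn1 lay below 0 in each plotted group and Ednra in 13 of 15, with the Dlk1/3632451O06Rik cluster and MLP-like cells above 0 for Ednra.

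Ednrb was sparse in this lineage and lay in small groups. Over all cells it was at 1.78, 1.13, 2.64 and 0.870 UPM for the 4 libraries in order, from 45, 29, 249 and 91 UMIs. The log2 ratio of cKO over Ctrl was −0.66 (−1.39 to 0.04) at E8.5 and −1.60 (−1.97 to −1.25) at E9.5, but −0.61 at E9.5 once cell groups were weighted by their Ctrl shares. In Ctrl E9.5 the highest were the Fabp7/Hes5 cluster (40.5 UPM), with genes of neural progenitors, the Sox10/Dlx5 cluster (27.9) and Etv2-led endothelial-like cells (26.8), which did not differ from each other beyond their counting intervals. Cldn5-led endothelial-like cells followed at 9.43 UPM and held the most UMIs, 27.3% (21.9 to 33.3). Mesenchyme-like cells were at background, with no Ednrb UMI in 1181 thinned cells of Ctrl E9.5, which allows a share of cells with a UMI of up to 0.254% by the same 3 counts.

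Of 6 groups with at least 20 Ednrb UMIs at E9.5, the 2 endothelial-like ones had an interval below 0. Only 1 of them, the Etv2-led, had it below its own median over all genes. Cldn5-led cells had 9.43 UPM in Ctrl E9.5 (68 UMIs in 351 cells) and 3.43 in cKO E9.5 (5 UMIs in 89 cells), a log2 ratio of −1.46 (−3.13 to −0.17). Etv2-led cells had 26.8 and 10.2 UPM (−1.39, −2.70 to −0.26), and at E8.5 they had 2.06 and 1.35 UPM. The Fabp7/Hes5 cluster had 40.5 and 34.7 UPM at E9.5 (−0.22, −1.52 to 0.89), though with 61 and 14 cells. The neural crest-like cells found at a finer resolution within the Sox10/Dlx5 cluster, 14 from the control and 5 from the mutant at E9.5, had 48.03 and 49.9 UPM of Ednrb (0.06, −1.74 to 1.55). The other part of that cluster, led by Dlx5 and Spp1, had 30 Ednrb UMIs in 67 cells (22.2 UPM) of the control, and 0 in the 9 cells of the mutant, whose interval reaches 25.5 UPM.

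Dlx5 and Dlx6, the targets, had few UMIs at E8.5 and more at E9.5. Dlx5 had 7 UMIs in the control library and 11 in the mutant at E8.5, and 461 and 97 at E9.5, or 0.277, 0.427, 4.89 and 0.927 UPM. Dlx6 had 1, 0, 67 and 29 UMIs, and the count of 0 allows up to 0.117 UPM. From E8.5 to E9.5 in Ctrl the log2 ratio was 4.14 (3.09 to 5.46) for Dlx5 and 4.16 (1.64 to 9.49) for Dlx6. Between genotypes at E9.5 it was −2.40 (−2.73 to −2.08) for Dlx5 and −1.36 (−2.04 to −0.71) for Dlx6. With cell groups weighted by their Ctrl shares these were −1.10 and −0.42. Dlx6 overlaps Dlx6os1, a long noncoding RNA, and reads in the overlap are uncertain.

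About equal parts of Dlx5 lay inside and outside 1 small group. The Sox10/Dlx5 cluster held 49.5% (44.8 to 54.1) of the Dlx5 UMIs of Ctrl E9.5, at 135 UPM in 80 cells, against 73.5 UPM in 14 cells of cKO E9.5 (log2 ratio −0.88, −1.66 to −0.19). Clustered on genes that held no class markers, the cells gave −1.72. The counting interval of the −0.88 held the cluster's own median over all genes, −0.27. At the finer resolution the part led by Dlx5 and Spp1 had 162 UPM in 67 cells and 124 UPM in 9 cells (−0.38, −1.16 to 0.31). Of the 11 Dlx5 UMIs of cKO E8.5, 7 lay in 3 cells of this part, at 105 UPM (42.2 to 216), and no cell of Ctrl E8.5 fell in it. All 7 otic markers were counted in the 19 cells of the Sox10/Dlx5 cluster of Ctrl E9.5 with at least 5 Dlx5 UMIs, at 478 UPM in sum against 274 UPM in its 61 other cells. The epithelial list summed to 1995 against 1520 UPM and that of anterior second heart field or somatic mesoderm to 251 against 101. The neural crest list, which shares Sox10 with the otic one, gave 231 against 224, and the mesenchyme list 157 against 190. The limit of 5 UMIs was set after the values had been seen. The next groups in Ctrl E9.5 were the Crym/Barx1 cluster at 19.8 UPM and ectoderm-like cells at 7.76 UPM. Ectoderm-like cells of cKO E9.5 had 6.96 UPM (−0.16, −1.12 to 0.73).

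The Dlx5 of the Crym/Barx1 cluster came from 9 cells. Of its 253 cells in Ctrl E9.5, 243 had no Dlx5 UMI, 1 had a single UMI and 9 had 6 to 14 UMIs. Those 9 cells held 90 Dlx5, 20 Dlx6, 31 Dlx2, 96 Barx1 and 89 Twist1 UMIs, and no UMI of Edn1. Of 7 neural crest markers 5 were at 0 in them, but the list summed to 38.2 UPM against 6.28 in the other 244 cells, with 8 UMIs of Tfap2b in 3 of the 9. All 7 otic markers were at 0. Barx1, a homeobox gene of jaw and tooth mesenchyme, had no UMI in the 243 cells, so the cluster owes the second gene of its name to these few. In cKO E9.5 the cluster held 281 cells, of which 2 had Dlx5, with 3 UMIs each, and the log2 ratio was −3.90 (−5.38 to −2.72). The 9 cells were chosen by their Dlx5 counts after these had been seen.

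The 9 cells of the Crym/Barx1 cluster had 3 Ednra UMIs, all in 1 cell, which is 10.4 UPM (2.15 to 30.4) against 41.0 UPM (35.1 to 47.5) in the 243 cells without Dlx5. Their depth, 24736 to 38435 UMIs per cell, was above the median of 17353 in the 243. In all thinned cells of Ctrl E9.5, Ednra and Dlx5 were found together in 7 cells, where the product of their single shares gives 20.9. Within the Sox10/Dlx5 cluster of the same library it was 5 cells against 4.95, and over all cells of cKO E9.5 it was 4 against 5.03. Dlx5 and Dlx6 were found together in 13 cells of Ctrl E9.5 against 0.429 from the product. Within the Sox10/Dlx5 cluster of that library the count was 6 against 4.33, and within the Crym/Barx1 cluster 3 against 0.109. Edn1 and Ednra shared 25 cells against 112 over all cells, but 14 against 15.5 within BrM-like cells and 5 against 3.43 within the Dlk1/3632451O06Rik cluster. Edn1 and Ece1 shared 87 against 96.3. These counts describe cells within single libraries and carry no test.

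Cells with Dlx5 in Ctrl E9.5 were mostly of separate kinds, told apart by Twist1, a mesenchyme factor, and Epcam, an epithelial adhesion gene. Among 80 cells of Ctrl E9.5 with at least 2 Dlx5 UMIs, 12 had at least 5 Twist1 UMIs and at most 1 of Epcam, and 56 had at least 3 Epcam UMIs and at most 2 of Twist1. In cKO E9.5 there were 18 cells with at least 2 Dlx5 UMIs, 2 of the first and 6 of the second kind, so most were of neither. The mesenchymal cells held 117 Dlx5 UMIs in Ctrl and 6 in cKO, and the epithelial ones 248 and 22, of 390 and 62 in all these cells. Dlx6 was found in 11 of the 12 mesenchymal cells and in 15 of the 56 epithelial cells of Ctrl E9.5, and Barx1 in 9 and 0 of them. These counts were not thinned to like depth. The mesenchymal cells had 24736 to 40849 UMIs each and the epithelial cells 13817 to 56461, and the former held more Dlx5 UMIs per cell. The limits on Twist1 and on Epcam were both set after the values had been seen.

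**Figure D4:**
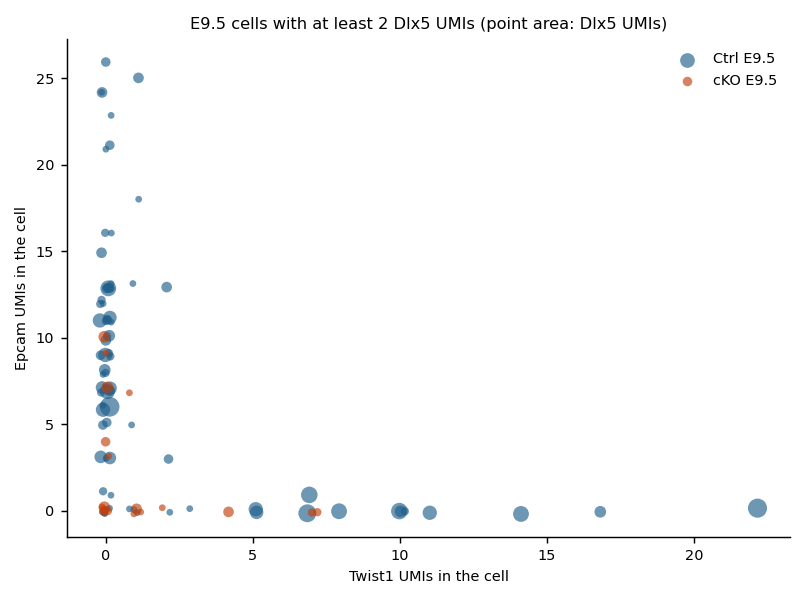
Twist1 UMIs (x axis) and Epcam UMIs (y axis) in each E9.5 cell with at least 2 Dlx5 UMIs, with point area in proportion to the Dlx5 UMIs and a small random shift to part points. The 80 cells of Ctrl E9.5 lie mostly along either axis, and the 18 of cKO E9.5 mostly near the origin or along the Epcam axis.

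Counted as a set, 4 of the 6 members (Edn1, Ednrb, Dlx5 and Dlx6) were at least 2-fold lower over all cells of cKO E9.5 than of Ctrl E9.5, where 9.80% of all genes with at least 20 UMIs were, and none was higher (3.56% of all genes). Weighted by the shares of Ctrl UMIs in the cell groups, Ednrb (−0.61) and Dlx6 (−0.42) fell short of 2-fold, and after thinning Dlx6 did too (−0.50, −1.43 to 0.41). The median log2 ratio of the 6 was −1.48 beside −0.26 over all genes. At E8.5, 4 members had enough UMIs and none was 2-fold higher or lower, where 2.92% of all genes were higher and 1.30% lower. From E8.5 to E9.5 in Ctrl, Dlx5 and Dlx6 were at least 2-fold higher (17.9% of all genes) and none was lower (2.98%).

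Of 34 other genes of the pathway, 31 had at least 20 UMIs at E9.5. There 7 were at least 2-fold lower in cKO, Ece2, Plcb1, Dlx3, Dlx4, Dlx6os1, Barx1 and Pou3f3, and the median log2 ratio of the 31 was −0.36. At E8.5, none of 24 was 2-fold lower. Among the ligands, Edn3, which acts mainly through Ednrb, was at 6.62, 6.18, 16.1 and 17.1 UPM over all cells for the 4 libraries in order, higher at E9.5 in both genotypes, with an interval between genotypes at E9.5 that held 0 (log2 ratio 0.09, −0.01 to 0.19). Edn2 had 0 and 1 UMI at E9.5.

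The G proteins that couple the receptors moved little at E9.5, with log2 ratios of −0.12 for Gnaq and −0.36 for Gna11. Plcb1, a phospholipase that acts after Gq, went from 7.75 to 2.64 UPM (−1.56, −1.76 to −1.35), while Plcb3 (−0.55) and Plcb4 (−0.42) differed less. In the Dlx family Dlx3 went from 78 to 18 UMIs (−2.27, −3.09 to −1.51) and Dlx2 from 307 to 218 (−0.64, −0.90 to −0.39), and Dlx1 from 71 to 82, with an interval that held 0 (0.06, −0.42 to 0.54). Among the genes of the lower arch, Barx1 went from 147 to 45 UMIs (−1.86, −2.37 to −1.37). Hand2, which Dlx5 and Dlx6 are known to act on, had a ratio of −0.27 (−0.39 to −0.15), near the median of all genes, and Msx1 one of 0.30 (0.22 to 0.37). Of the genes known from the upper arch, Pou3f3 was lower (−1.11, −1.60 to −0.63), as was Hey1 (−0.97, −1.05 to −0.90), and Nr2f1 was higher (0.81, 0.77 to 0.86).

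Ece2, a relative of Ece1, was at 46.9 UPM in E9.5 controls and 1.01 in E9.5 mutants and lower in 20 of 20 cell groups. A neighbouring gene, Eef1akmt4, was listed only in the gene table of cKO E9.5, where it had 40.6 UPM, and RefSeq has a joint locus over both. The Ece2 difference cannot be told apart from the change of gene table. No RefSeq gene that overlaps a member was listed by its symbol for cKO E9.5 alone. The same search did not return Eef1akmt4 for Ece2, so it does not show that the members are free of such an effect.

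Across 57 groups of cells (a cell group in a library, at least 50 cells each) the genes most like each member in level were found among 12116 genes, as Pearson's r of log2(UPM + 10). These points share libraries and cells of the same lineage, and the values are a description. For Edn1 they were Nkx2-6 (0.76), Syt17 (0.76) and Sh3bgrl2 (0.73), and for Ece1 Tubb6 (0.75), Sparc (0.75) and Rgl1 (0.74). Ednra was most like Col9a1 (0.82), Tns1 (0.82) and Ddr2 (0.81), and Ednrb like Ctnnd2 (0.80), Slc16a13 (0.74) and Tfap2b (0.71). Dlx5 was most like Hmx2 (0.85), Sox10 (0.83) and Dync1i1 (0.82). The values for Dlx5 rest largely on 1 point, the Sox10/Dlx5 cluster of Ctrl E9.5, with 135 UPM against at most 19.8 UPM in the others. Dlx6, with 97 UMIs in all, was below the 200 UMIs asked of a gene and was left out. Between ligand and receptor, Edn1 and Ednra, r was −0.49, whereas Edn1 and Ece1 had −0.07.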

How the data were processed

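Each library was deposited by the authors as a matrix of UMI counts that were not normalized, after Cell Ranger had aligned reads to mm10 (GRCm38). Version 3.1.0 is named in the submitters' processing notes and 3.0.2 in both E8.5 file headers. All deposited barcodes were kept. Library totals were 25391654 to 104773150 UMIs, and the shared genes held 99.4% to 99.9% of them. Counts were summed per library and cell group and scaled to 1000000 UMIs of shared genes. Sums carry exact Poisson, ratios exact conditional binomial and shares Clopper-Pearson 95% intervals, which cover counting error only. Ratios against 0 UMIs use a floor of 3 UMIs, and where 0 cells were counted the upper limit is that of 3 cells. A gene is called higher or lower at 2-fold with at least 20 UMIs in both libraries together. Shares of cells were taken after thinning to 10000 UMIs, which left out 135, 84, 555 and 718 cells of Ctrl E8.5, cKO E8.5, Ctrl E9.5 and cKO E9.5.

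Cells were clustered with Seurat 5.3.0 in R 4.3.3 (reciprocal principal component integration, 2000 variable genes, 30 components, resolution 1, seed 1), leaving out 41 pathway genes (Tbx1 included) and 131 technical genes. A cluster was named where at least 3 markers of a class stood at 1.5 times the other Ctrl cells and its 10 leading genes held more markers of that class than of any other, a rule set after the clusters had been seen. Rebuilt names may differ from the study's. Scrublet (scanpy 1.11.5) called 24, 6, 4 and 1 barcodes doublets in the same order, too few at E9.5 to rely on, so none were removed and the 5% with the highest scores were left out as an alternative. Sums were made in Python 3.11.15 with scipy 1.17.1, numpy 2.4.6 and pandas 2.3.3. TMM factors of edgeR 4.0.16 served as another scaling. The ratio script was tested on simulated data.

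The members, gene lists and markers were chosen with earlier results of these data known. The genes named are the members, the pathway list, Tbx1 and the 3 genes most like each member with at least 200 UMIs. Marker genes of chosen cells were named after their values were seen. Promoter windows of Dlx5 and Dlx6 were not analysed here. Results for some genes and clusters are not reported here.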

Additional observations from a re-analysis of the deposited data

Results flagged for a closer look

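Some results had opposite signs at both stages or in both genotypes, each with a 95% counting interval on its own side of 0. In every case the difference was not tested, since there was 1 library per group. Ece1 over all cells had a log2 ratio of cKO over Ctrl of 0.23 at E8.5 and −0.55 at E9.5. Edn1 in the Dlk1/3632451O06Rik cluster had 1.20 at E8.5, from 28 and 9 UMIs, and −0.66 at E9.5. Ednra in mesenchyme-like cells had 0.72 at E8.5 and −0.91 at E9.5. From E8.5 to E9.5 over all cells, the log2 ratio of Edn1 was 0.66 in Ctrl and −0.92 in cKO, and that of Ece1 was 0.58 in Ctrl and −0.20 in cKO, where the medians of all genes were 0.39 and 0.06.

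Outside the genes shared by all gene tables, Eef1akmt4 had 40.6 UMIs per 1000000 UMIs (4249 UMIs) in cKO E9.5, the only library in whose gene table it is listed.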

How the results depend on the processing

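No paired analysis was possible because each group was 1 library and no result came from a test, and for the same reason no replicate could be left out. Of 705 alternative values for 105 results, 668 stayed within the counting interval of the main value, 37 moved beyond it and none of the called values changed sign. Of 159 alternatives for the main comparisons, 29 moved. Where only the scaling was changed the cause is that the median of all genes differs between libraries, and where cell groups were weighted the cause is their share of the library; for the others the cause was not tested. As log2 ratios of cKO over Ctrl at E9.5 over all cells, TMM factors gave −1.91 for Edn1, −0.30 for Ece1 and −0.39 for Ednra, and subtracting the median of all genes gave −1.90, −0.29 and −0.39. Weighting cell groups by their shares of Ctrl UMIs gave −1.11 for Edn1, −0.34 for Ece1, −0.87 for Ednra, −0.61 for Ednrb, −1.10 for Dlx5 and −0.42 for Dlx6. Thinning cells to 10000 UMIs gave −2.02 for Dlx5 and −0.50 (−1.43 to 0.41) for Dlx6, whose interval then held 0. Within cell groups at E9.5, TMM factors and the median, the latter chosen after seeing the data, gave −1.58 and −1.57 for Edn1 in BrM-like cells and −0.72 and −0.72 for Ednra in mesenchyme-like cells. With class markers left out of the variable genes Dlx5 in the Sox10/Dlx5 cluster was −1.72, and without integration Ednra in mesenchyme-like cells at E8.5 was 0.24. From E8.5 to E9.5 in Ctrl, TMM factors gave 0.30 for Edn1, 0.22 for Ece1 and 0.33 for Ednra, and weighting by E8.5 shares gave 0.29 for Edn1, 0.86 for Ednra and 1.19 for Ednrb. For log2 ratios of shares of cells at E9.5, asking for at least 2 UMIs gave −1.98 for Edn1 in BrM-like cells and −2.05 for Ednra in mesenchyme-like cells, and no thinning gave −1.10 for the former. The same limit of 2 UMIs turned the sign of shares whose intervals held 0, to −0.48 for Edn1 in endoderm-like and 0.32 for Ece1 in Cldn5-led endothelial-like cells. Leaving out the 5% of barcodes with the highest doublet scores, also chosen after seeing the data, moved no value beyond its interval. Depth limits Dlx6, Ednrb and every group of under 20 cells.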
